A study of Mus musculus with 79 samples.

Results

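The genes described here are the glucocorticoid receptor gene Nr3c1 and 9 genes that the receptor is known to regulate, namely Fkbp5, Tsc22d3, Sgk1, Zbtb16, Glul, Klf9, Dusp1, Mt1 and Mt2. They were chosen by symbol. All 10 were named in each of the 6 deposited tables, which together hold 25083 gene names. The study sequenced RNA of 79 mouse samples to follow circadian gene expression when AHCY (adenosylhomocysteinase) is lost or inhibited. This enzyme clears S-adenosylhomocysteine, a product of methyl transfer that inhibits methyltransferases. In 1 experiment, embryonic fibroblasts (MEF) of C57BL/6J background were either WT or AHCY null (KO, made with CRISPR-Cas9) and harvests were at circadian times (CT) 12, 16, 20, 24, 28 and 32, each in triplicate (n = 3). In another, fibroblasts of the same background received DMSO or the AHCY inhibitor 3-deazaneplanocin A (DZnep, dissolved in DMSO) before harvest at CT12 or CT24, again with n = 3. In the last, C57BL/6 mice aged 10 weeks had saline or DZnep infused into the hypothalamus, and punches of the suprachiasmatic nucleus (SCN) were taken at CT3, CT9, CT15 and CT21 (n = 4, but n = 3 at CT21 with saline). Every fibroblast group, controls included, had been synchronised at confluence with 100 nM dexamethasone for 1 h, and its CT counts hours from that pulse. No dexamethasone is described for the mice. No fibroblasts without the pulse were analysed here, so the response to dexamethasone itself was not measured. Neither the DZnep doses nor the number of KO clones is given in the sources used here.

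The glucocorticoid receptor is a nuclear receptor that waits in the cytoplasm in a complex with heat shock protein 90 and its cochaperones. Bound by corticosterone in mice or by the synthetic agonist dexamethasone, it enters the nucleus and binds inverted repeats known as glucocorticoid response elements, where it raises or lowers transcription. Fkbp5 encodes a cochaperone that lowers the receptor's affinity for hormone and closes a negative feedback loop. Tsc22d3 encodes GILZ, and Dusp1 a phosphatase that switches off MAP kinases, and both carry part of the anti-inflammatory action. Sgk1 encodes a kinase that acts on ion transport, Glul encodes glutamine synthetase, which in brain is an astrocyte enzyme, and Zbtb16 and Klf9 encode zinc finger transcription factors. The metallothioneins Mt1 and Mt2 bind zinc and copper, and are induced both by metals, through metal response elements, and by glucocorticoids. In rodents, blood corticosterone peaks around the onset of the active night. In cultured fibroblasts a dexamethasone pulse aligns the cells' clocks.

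Sequence around the start sites was read from RefSeq windows on GRCm38.p6 of 250 bases before and 50 bases after each annotated start. The 15 windows of 8 members were searched on both strands, against all 32841 windows. The full receptor element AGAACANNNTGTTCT, an inverted repeat, was in 0.00913% of all windows and in 1 of the members' windows, an internal start of Sgk1. The looser form GNACANNNTGTNC, which lies within the full form, was in 0.475% of all windows, and among the members in that Sgk1 window and in the Mt1 window. The single element AGAACA, which the full form repeats, was in 19.0% of all windows and among the members in windows of Sgk1 and Tsc22d3. Metal response elements, written TGCACNC or TGCGCNC, were in 25.7% of all windows, and 0.518% held 4 or more. The Mt2 window held 4 and the Mt1 window 3, and the Sgk1, Glul and Dusp1 windows 1 each. These matches describe letters in short windows and say nothing about occupancy by the receptor or by the metal-sensing factor MTF1. The sequences of 3 members are given 5′ to 3′ on the plus strand, from 250 bases before to 30 bases after the annotated start. Mt1 and Mt2 were picked by name. The Sgk1 window was picked because it holds the full receptor element, and not for a level difference. Capitals mark the full receptor element in Sgk1 (chr10:21993640-21993919, beginning 189 bases before the start). They mark the looser receptor form, beginning 94 bases before the start, and the metal response elements in Mt1 (chr8:94178839-94179118). In Mt2 (chr8:94172368-94172647) they mark the metal response elements.
Sgk1: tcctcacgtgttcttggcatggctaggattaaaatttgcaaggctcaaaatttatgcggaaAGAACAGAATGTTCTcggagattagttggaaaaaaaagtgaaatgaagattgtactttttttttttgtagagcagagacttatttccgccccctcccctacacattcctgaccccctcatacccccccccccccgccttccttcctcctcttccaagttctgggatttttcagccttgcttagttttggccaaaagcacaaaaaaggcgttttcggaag
Mt1: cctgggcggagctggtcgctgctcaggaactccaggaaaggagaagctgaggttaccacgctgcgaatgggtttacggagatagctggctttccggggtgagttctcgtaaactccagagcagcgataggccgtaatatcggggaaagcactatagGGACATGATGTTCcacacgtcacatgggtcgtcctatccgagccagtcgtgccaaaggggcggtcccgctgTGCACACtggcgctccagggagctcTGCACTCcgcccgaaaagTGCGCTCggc
Mt2: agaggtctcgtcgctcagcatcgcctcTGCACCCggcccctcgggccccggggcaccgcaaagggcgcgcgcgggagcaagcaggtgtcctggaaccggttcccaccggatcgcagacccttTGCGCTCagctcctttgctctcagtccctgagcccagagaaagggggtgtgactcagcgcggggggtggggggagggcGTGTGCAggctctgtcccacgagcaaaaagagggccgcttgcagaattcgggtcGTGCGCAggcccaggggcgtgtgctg
Mt2 ends 5513 bases before Mt1 begins, both on the plus strand of chromosome 8. The longest identical run between their transcripts was 20 bases. The other members lie on chromosomes 1 (Glul), 9 (Zbtb16), 17 (Fkbp5 and Dusp1), 18 (Nr3c1), 19 (Klf9) and X (Tsc22d3). Dusp1 overlaps Ergic1 and Glul overlaps Teddm2 on the opposite strand, and Mt2 and Fkbp5 each overlap an antisense gene. Whether the authors counted by strand is not stated in the labels, so those values may hold reads of both.

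The targeted gene Ahcy averaged 176 ± 24.7 (SD, n = 18) TPM in WT and 3.16 ± 0.672 (SD, n = 18) TPM in KO libraries. Fibroblast markers were present in both arms, with 12 of 12 averaging 1 or more in WT and 11 of 12 in KO. Neuron markers of the SCN (14 of 14) averaged 1 or more in both SCN arms. The WT and KO cells also differed in sex chromosome transcripts, with Xist at 176 ± 24.0 TPM in WT and 0.140 ± 0.0619 in KO, and the Y-linked Ddx3y at 0.307 ± 0.0937 and 18.4 ± 0.994 TPM. The effects of Ahcy loss and of other differences between these cells cannot be told apart. In the WT arm, the 9 skeletal muscle markers summed to 414 to 554 TPM at CT20 and to at most 5.35 TPM at the other times. Among SCN libraries, replicate 2 of saline CT9 had summed microglia and immune markers of 679.5 FPKM, against at most 99.2 in the other saline and 93.0 in the DZnep libraries. Read depth is unknown, and p-values measure the spread between libraries that the labels call biological replicates.

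Levels per length differed widely among the members. Over the 18 WT fibroblast libraries, mean TPM ran from Mt1 (744 ± 87.0, SD here and below) and Mt2 (543 ± 71.2) through Sgk1 (282 ± 84.1), Nr3c1 (62.1 ± 3.95), Glul (48.9 ± 3.79) and Fkbp5 (29.2 ± 1.55) to Dusp1 (18.7 ± 3.62), Tsc22d3 (14.4 ± 3.15) and Klf9 (13.8 ± 2.14). The SDs of Dusp1, Tsc22d3 and Klf9 overlap, so their order is not resolved. Zbtb16 reached at most 0.149 TPM in any WT or KO library and 0.0137 FPKM in any DMSO or DZnep library. It fell below the filter there, so 9 of the 10 members were tested in fibroblasts. In the SCN all 10 were tested. Over the 15 saline libraries, mean FPKM was highest for Mt1 (244 ± 76.0) and Glul (181 ± 24.3), then Mt2 (49.2 ± 29.8) and Tsc22d3 (15.2 ± 5.20). Klf9 (10.6 ± 1.82) and Nr3c1 (10.1 ± 0.809) did not differ beyond their spread, nor did Fkbp5 (5.19 ± 1.30), Dusp1 (4.72 ± 2.104) and Sgk1 (4.44 ± 2.55). Zbtb16 had the lowest mean (3.06 ± 1.07), though its SD overlapped those of Fkbp5, Dusp1 and Sgk1, and it was present in every SCN library.

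In WT fibroblasts, the hours after the dexamethasone pulse went with changes in all 9 tested members (adjusted p under 0.05, limma F test of any difference among the 6 times), where 69.5% of all 13603 genes tested were called. The median range over times among the members was 0.54 on the log2 scale, against 0.36 over all genes. Log2 differences throughout are of rescaled value + 1 and understate those of low genes, while levels are the deposited values. Sgk1 changed most. Its WT libraries held 395, 392 and 398 TPM at CT12, 340.1, 334 and 372 at CT16, 219.7, 201 and 249 at CT20, 345, 313 and 307 at CT24, 259.6, 242 and 243 at CT28 and 153, 154 and 163 at CT32. The 3 libraries at CT12 were above, and the 3 at CT32 below, every library of the other times, with a dip at CT20 and a second rise at CT24. The range over times was 1.39 (adjusted p = 2.66e-18).

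Setting CT12, the time nearest to the pulse, against the mean of the 5 later times shows which members differed between 12 h and the later hours, and not which had answered to the pulse. In WT cells 6 of 9 members passed this test, against 59.4% of all genes, and 1 was higher at CT12 (26.7% of all genes) and 5 were lower (32.7%). Sgk1 was the higher one, with a log2 difference of 0.71 (SE 0.037, adjusted p = 6.00e-15). The transcription factor gene Klf9 was lower at CT12, at -0.36 (SE 0.058, adjusted p = 5.62e-06). Its 3 CT12 libraries held 10.6, 10.6 and 10.6 TPM, below all later libraries, and the CT32 libraries held 16.2, 17.6 and 17.0. Dusp1 was lower at CT12 (-0.22) and Tsc22d3 as well (-0.22). Both had their highest WT mean at CT24, Dusp1 at 23.5 ± 1.99 (SD, n = 3) TPM against 15.7 ± 1.17 at CT12, and Tsc22d3 at 18.6 ± 2.17 against 12.0 ± 0.588. Nr3c1 (-0.13) and Glul (-0.079) were lower by less. The feedback gene Fkbp5 differed by 0.0079 (95% interval -0.041 to 0.057), and its WT means stayed between 27.5 and 31.6 TPM over the 6 times. Mt2 (0.16, SE 0.08, adjusted p = 0.0823) and Mt1 (0.05, SE 0.079, adjusted p = 0.603) did not pass. The metallothioneins had their lowest WT means at CT24, where Mt2 held 378, 444 and 463 TPM, below all other WT libraries. Their highest WT means were at CT32, where Mt2 held 616, 636 and 650.0 TPM. The Mt1 libraries of CT32 (816 to 828 TPM) overlapped those of other times, which reached 876 TPM at CT16. The Tsc22d3 call at CT12 was lost when CT20 was left out (adjusted p = 0.113) and without WT CT12 replicate 1 (0.126) or 2 (0.0879), and also with quantile normalization (-0.16, adjusted p = 0.141). Mt2 passed without KO CT24 replicate 3 (adjusted p = 0.0245), and the Mt1 change over times was lost without WT CT24 replicate 1 (adjusted p = 0.131).

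**Figure D1:**
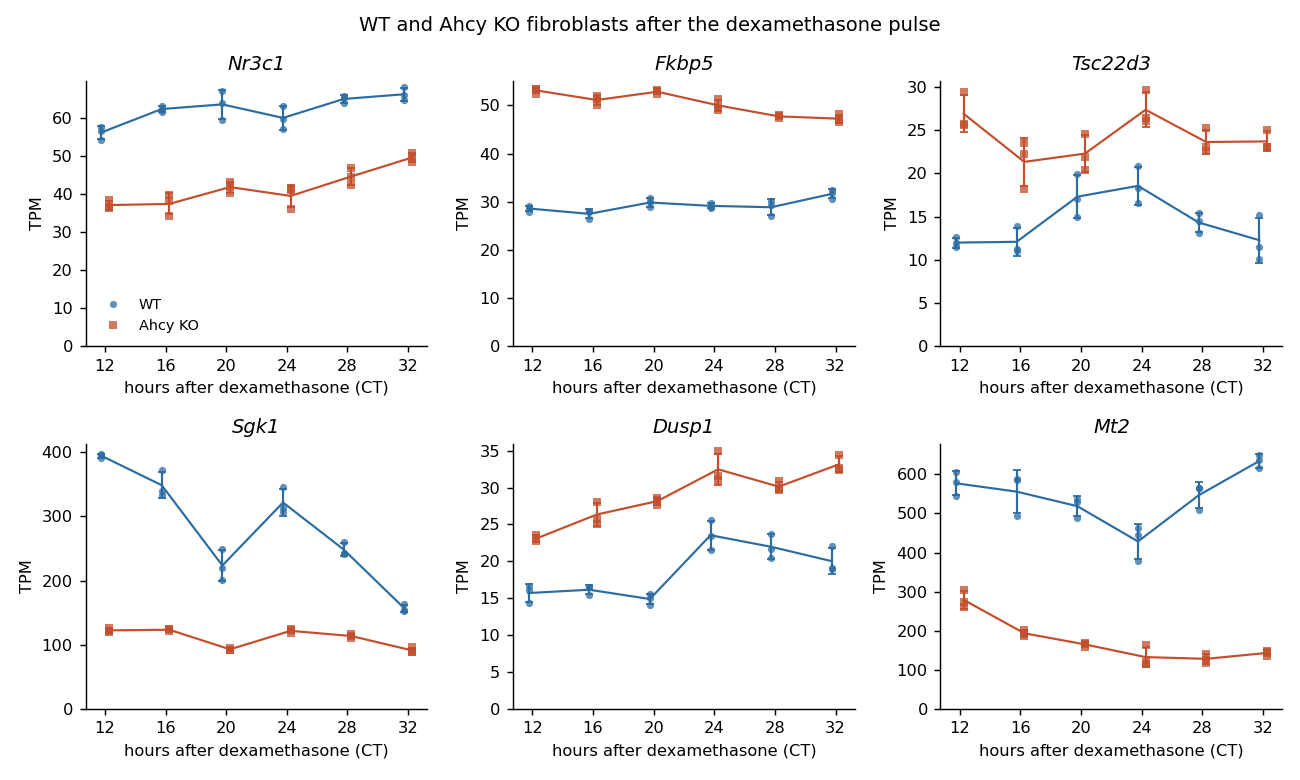
Deposited TPM (y axis, from 0) of 6 members against hours after dexamethasone (x axis), with 1 point per library and lines joining the means ± SD of 3 libraries in WT (blue circles) and KO (red squares). Sgk1 in WT falls from 395 TPM at CT12 to 157 at CT32 while KO stays between 88.6 and 126, and Mt2 in KO is highest at CT12.

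Between KO and WT cells, all 9 tested members differed in level averaged over the 6 times, where 89.6% of all genes were called. A count of 9 of 9 is near that background and is not a result about the members. Of the members, 4 were higher in KO (42.6% of all genes) and 5 lower (47%). The median over all genes was -0.045 after rescaling, and rescaling had moved KO against WT by 0.22 on the log2 scale. The receptor gene Nr3c1 was lower in KO. Its lowest, median and highest values were 34.2, 41.1 and 50.7 TPM in KO and 54.1, 63.2 and 67.9 in WT, with no overlap, and the log2 difference was -0.79 (SE 0.017, adjusted p = 1.54e-25). In bulk samples fewer cells of a type and less RNA per cell cannot be told apart.

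The targets did not follow the receptor's mRNA in 1 direction. The feedback gene Fkbp5 was higher in KO, with 46.5, 50.7 and 53.5 TPM against 26.4, 29.0 and 32.4 in WT, again with no overlap (0.55, SE 0.013, adjusted p = 2.86e-25). Tsc22d3, the GILZ gene on the X chromosome, held 18.2, 24.1 and 29.7 TPM in KO and 10.1, 14.2 and 20.8 in WT (0.52, SE 0.047, adjusted p = 3.27e-11). The Tsc22d3 ranges overlapped with all times pooled, but at no single time did the arms overlap. The highest WT values of Tsc22d3 came from CT20 and CT24. Glul was higher by 0.34 (SE 0.012, adjusted p = 9.02e-21) and Dusp1 by 0.40 (SE 0.028, adjusted p = 1.14e-13). For Glul, KO libraries held 65.6, 73.1 and 79.3 TPM and WT libraries 42.7, 48.5 and 55.2, with no overlap. Among the genes that were lower, Sgk1 held 88.6, 118 and 126 TPM in KO and 153, 283 and 398 in WT, without overlap (-1.50, SE 0.02, adjusted p = 3.83e-31). The metallothioneins differed most. Mt2 held 114, 161 and 303 TPM in KO and 378, 555 and 650.0 in WT (-1.91, SE 0.042, adjusted p = 1.56e-25), and Mt1 197, 277 and 339 and 540.3, 754 and 876 (-1.63, SE 0.041, adjusted p = 4.41e-24). In neither did the arms overlap. Klf9 was lower after rescaling, at -0.14 (SE 0.031, adjusted p = 1.49e-04), with deposited means of 14.4 ± 1.59 (SD, n = 18) TPM in KO and 13.8 ± 2.14 (SD, n = 18) in WT, and on the deposited values its difference turned to 0.066 (adjusted p = 0.0585), while with quantile normalization it was -0.022 (0.457). The 9 muscle markers (5.24 to 7.64 TPM in KO, 3.65 to 554 in WT, 8 of 9 lower in KO) and the 12 fibroblast markers (7386 to 9120.1 and 9997 to 13307 TPM, 3 higher and 9 lower in KO) moved with the contrast, and their part in it was not tested. All 9 calls and directions held without CT20.

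The course after the pulse also differed between the arms. The test of arm by time passed for 8 of 9 members, against 52.2% of all genes, Mt1 being the exception (adjusted p = 0.404). Within KO cells 8 of 9 members changed over time, against 42.7% of all genes, and Tsc22d3 did not pass (adjusted p = 0.0788). For CT12 against later times, 7 of 9 members passed in KO, against 23.8% of all genes, with 5 higher at CT12 (12.6% of all genes) and 2 lower (11.2%). The difference of this contrast between the arms passed for 6 of 9, against 43.6% of all genes, 5 of them higher in KO (23.5%) and 1 lower (20.1%). Mt2 stood out among those with higher CT12 in KO. Its KO libraries held 259.7, 273 and 303 TPM at CT12, 187, 202 and 191 at CT16 and 159, 169.5 and 166 at CT20, then 114, 119.9 and 163 at CT24, 117, 141 and 126 at CT28 and 149, 146 and 134 at CT32. The CT12 libraries were above all later ones. The CT12 contrast was 0.89 (SE 0.08, adjusted p = 4.54e-09) in KO and the difference between arms 0.73 (SE 0.11, adjusted p = 7.43e-06). Sgk1 went the other way. In KO its CT12 contrast was 0.19 (SE 0.037, adjusted p = 3.87e-04), and the difference from WT was -0.52 (SE 0.052, adjusted p = 8.37e-09). The dip at CT20 was present in both arms, with 91.6, 92.4 and 94.3 TPM in KO and 124, 118 and 123 at CT24. Muscle markers at CT20 summed to 5.25 to 6.16 TPM in KO and 414 to 554 in WT, and their part in the dip was not tested.

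Glul was higher at CT12 than later in KO (0.14) and lower in WT (-0.079), a difference of 0.22 (SE 0.032, adjusted p = 2.94e-06). Its KO means went from 78.0 ± 2.23 (SD, n = 3) TPM at CT12 to 68.9 ± 1.54 at CT32, with a low of 67.0 ± 1.15 at CT20, while WT means went from 45.3 ± 0.777 to 54.7 ± 0.556. Fkbp5 means in KO went from 53.1 ± 0.575 to 47.2 ± 0.843 TPM, with a CT12 difference between arms of 0.091 (SE 0.034, adjusted p = 0.0300). Klf9 lacked in KO the low CT12 value of WT, at 13.4, 16.0 and 14.6 TPM, and its difference was 0.40 (SE 0.082, adjusted p = 2.46e-04). Tsc22d3 had 29.4, 25.6 and 25.7 TPM at CT12 in KO against 11.4, 11.9 and 12.6 in WT, and its difference was 0.41 (SE 0.13, adjusted p = 0.00892). The receptor gene and Dusp1 were lower at CT12 than later in both arms, Nr3c1 at -0.18 in KO and -0.13 in WT and Dusp1 at -0.35 and -0.22. Their differences between arms did not pass (Nr3c1 -0.054, 95% interval -0.15 to 0.043; Dusp1 -0.13, 95% interval -0.29 to 0.021). The Fkbp5 difference was lost without WT CT12 replicate 1 (adjusted p = 0.0957) or 2 (0.0517) and without KO CT12 replicate 2 (0.0536) or 3 (0.0978). The KO contrast of Mt1 was lost without KO CT12 replicate 2 (adjusted p = 0.0553) or 3 (0.0630), and its difference between arms passed on deposited values (adjusted p = 0.0312), with quantile normalization (0.0153) and without WT CT20 replicate 3 (0.0367) or KO CT24 replicate 3 (0.0289). The change of Klf9 over times in KO was lost without KO CT32 replicate 2 (adjusted p = 0.145) or 3 (0.0761) or the 6 libraries with more than 2 times the median Malat1 of their arm (0.129), and Tsc22d3 passed there without WT CT32 replicate 2 (0.0296) or 3 (0.0461) or KO CT16 replicate 1 (0.0493).

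Other genes of the pathway were taken from lists of the receptor's partners and targets, and over all genes 42.6% were higher and 47% lower in KO. Of 35 other genes known to be induced by glucocorticoids, 31 were tested in WT and KO cells, and 4 were higher and 25 lower in KO, with a median log2 difference of -0.43 against -0.045 over all genes (8 higher and 21 lower on deposited values). They include the stress regulator Ddit4 (-4.51, adjusted p = 5.81e-38), the iron carrier Lcn2 (-7.93, adjusted p = 5.01e-37), the pyruvate dehydrogenase kinase Pdk4 (-3.10, adjusted p = 1.14e-35) and the cell cycle inhibitor Cdkn1a (-4.06, adjusted p = 1.91e-35). Lcn2 averaged 261 ± 62.1 TPM in WT and 0.151 ± 0.187 in KO. Some of these are also targets of p53 or of inflammatory signals. The receptor's chaperones and cochaperones were higher more often than lower, 9 against 3 of 14 (12 higher and 0 lower on deposited values), among them Cdc37 (0.64), Ppp5c (0.46), Stub1 (0.57) and Ppid (0.41). In WT cells 12 of the 14 were higher at CT12 than later, against 26.7% of all genes, led by the Hsp90 cochaperones Stip1 (0.49, adjusted p = 3.95e-15), Fkbp4 (0.58) and Ppid (0.58), and the contrast was lower in KO than in WT for 11 of the 14 and higher for 1, against 20.1% and 23.5% of all genes. Of the receptor's coregulators, 9 of 16 were higher and 6 lower (11 higher and 3 lower on deposited values), including the methyltransferases Ehmt2 (0.62) and Carm1 (0.48). Inflammatory genes known to be repressed by glucocorticoids were 5 higher and 9 lower of 15 (7 higher and 8 lower on deposited values), with Csf1 (1.42) and Vcam1 (1.60) higher and Nos2 (-5.84) and Cxcl1 (-4.56) lower. Metal response genes other than Mt1 and Mt2 were 3 higher and 3 lower of 7 (5 higher and 2 lower on deposited values), Gclc (0.89) and the metal sensor Mtf1 (0.34) higher and the zinc importer Slc39a14 (-1.27) and Hmox1 (-1.30) lower. Among steroid enzymes and related receptors, 2 were higher and 5 lower of 7.

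With the inhibitor in place of the knockout, 8 of 9 members differed in level between DZnep and DMSO fibroblasts averaged over CT12 and CT24, where 65.9% of all 10896 genes tested were called. Of these, 3 were higher (33.1% of all genes) and 5 lower (32.7%). Ahcy itself averaged 30.6 ± 9.10 (SD, n = 6) FPKM with DMSO and 25.1 ± 5.63 (SD, n = 6) with DZnep. Nr3c1 was higher with DZnep. The receptor gene held 20.6, 19.3 and 21.8 FPKM with DMSO and 37.6, 35.7 and 34.3 with DZnep at CT12, and 26.8, 26.2 and 19.1 and 36.6, 34.7 and 36.7 at CT24. No DZnep library overlapped a DMSO library, and the log2 difference was 0.62 (SE 0.085, adjusted p = 5.09e-05). Sgk1 was higher by 1.54 (SE 0.077, adjusted p = 1.56e-08). It held 75.2, 67.1 and 64.0 FPKM with DMSO and 204, 179 and 177 with DZnep at CT12, and 42.2, 31.8 and 43.1 and 131, 138 and 129 at CT24, with every DZnep library above every DMSO library and both arms lower at CT24. Dusp1 was higher by 0.73 (SE 0.089, adjusted p = 1.95e-05) and held 5.53, 5.09 and 5.87 FPKM with DMSO and 12.6, 12.0 and 13.0 with DZnep at CT12, and 6.69, 5.46 and 8.61 and 9.86, 11.8 and 8.72 at CT24, again without overlap.

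Mt2 was lower with DZnep, at -1.64 (SE 0.10, adjusted p = 7.37e-08). It held 248, 285 and 221 FPKM with DMSO and 62.8, 65.1 and 74.3 with DZnep at CT12, and 103, 126 and 142 and 41.2, 48.4 and 59.6 at CT24. All DZnep libraries were below all DMSO libraries. Mt1 was likewise lower without overlap (-1.20, SE 0.10, adjusted p = 8.40e-07), at 406, 477 and 400.2 FPKM with DMSO and 146, 184 and 199.7 with DZnep at CT12, and 219, 229 and 299 and 108, 116 and 138 at CT24. The 3 remaining changes were smaller, and their arms overlapped with CT12 and CT24 pooled, but not within CT12 or within CT24. Tsc22d3 was lower, at -0.34 (SE 0.048, adjusted p = 6.74e-05), with 11.8, 11.5 and 11.3 FPKM with DMSO and 9.25, 9.83 and 11.02 with DZnep at CT12, and 12.6, 10.9 and 12.3 and 8.14, 9.14 and 9.08 at CT24. Glul was lower, at -0.26 (SE 0.052, adjusted p = 0.00104), with means of 20.7 ± 3.87 (SD, n = 6) FPKM and 17.7 ± 1.73 (SD, n = 6). Klf9 differed by 0.097 (95% interval -0.09 to 0.28), which did not pass. The 12 fibroblast markers summed to 4821 to 5929.9 FPKM with DMSO and 3058 to 3735 with DZnep, 1 higher and 7 lower of 12 tested, and their part in the result was not tested.

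Fkbp5 passed the test that its change from CT12 to CT24 differed between DMSO and DZnep. It held 12.5, 12.9 and 12.9 FPKM with DMSO and 13.3, 13.0 and 12.9 with DZnep at CT12, and 15.9, 16.6 and 16.6 and 11.03, 11.1 and 11.4 at CT24. At CT12 every DZnep library was slightly above every DMSO library, and at CT24 every DZnep library was below, with a rise of 0.43 (SE 0.051, adjusted p = 7.04e-05) with DMSO, a change of -0.13 (SE 0.051, adjusted p = 0.0712) with DZnep and a difference of -0.56 (SE 0.072, adjusted p = 0.00172). Averaged over both times Fkbp5 was lower with DZnep, at -0.29 (SE 0.036, adjusted p = 2.58e-05). It was 1 of 9 members called in this test of the difference, against 6.11% of all genes, or 2.91% in its direction. With DMSO, 7 of 9 members changed between the times, against 50.7% of all genes, with Fkbp5, Glul (0.50), Klf9 (0.69) and Dusp1 (0.36) higher at CT24 (26.8% of all genes) and Sgk1 (-0.71), Mt1 (-0.69) and Mt2 (-0.92) lower (23.9%). With DZnep it was 4 of 9, against 37.2%, with Glul (0.31) and Klf9 (0.42) higher and Sgk1 (-0.39) and Mt1 (-0.45) lower. On values as deposited the Fkbp5 change with DZnep was -0.21 (adjusted p = 0.00651) and passed, as it did with no filter (0.0419). Deposited values also ended the call of Glul with DZnep (0.0507) and gave one for Mt2 (0.0398). Quantile normalization ended those of Mt1 (0.101) and Sgk1 (0.182) with DZnep and gave one for Nr3c1 with DMSO (0.0483). Dusp1 with DMSO was lost on deposited values (0.118), with quantile normalization (0.112) and with no filter (0.0599). Calls also turned on single libraries. The difference passed for Dusp1 (-0.69, adjusted p = 0.0225) and Glul (-0.28, adjusted p = 0.0274) without DMSO CT24 replicate 2, a library with more than 2 times the median Malat1 of its arm, and for Klf9 (0.0340), Mt2 (0.0444) and Nr3c1 (0.0214) without replicate 3. Without replicate 2 or 3 the Fkbp5 change with DZnep passed (adjusted p = 0.0349 and 0.0447), and without replicate 3 so did those of Nr3c1 with DMSO (1.81e-04) and Mt2 with DZnep (0.0458), the latter also without DZnep CT24 replicate 3 (0.0288). The Dusp1 change with DMSO was lost without DMSO CT12 replicate 1 or 2 or CT24 replicate 1 or 3 (adjusted p = 0.0722, 0.110, 0.0736 and 0.102). With DZnep, the Mt1 change was lost without CT12 replicate 2 or 3 or CT24 replicate 1 or 2, that of Klf9 without CT12 replicate 2 or 3 or CT24 replicate 3, and that of Sgk1 without CT12 replicate 1 or CT24 replicate 3 (adjusted p = 0.0522 to 0.104).

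**Figure D2:**
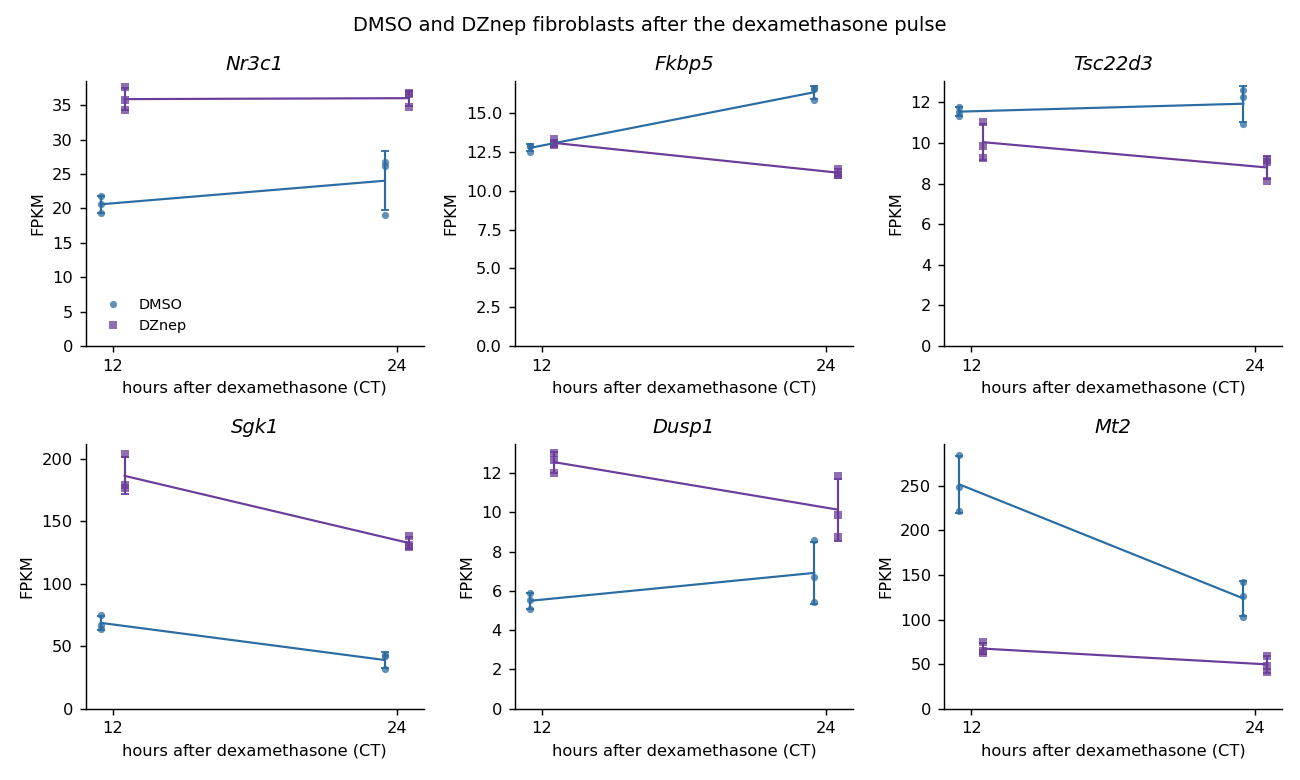
Deposited FPKM (y axis, from 0) of 6 members at 12 and 24 h after dexamethasone (x axis), with 1 point per library and lines joining the means ± SD of 3 libraries with DMSO (blue circles) and DZnep (purple squares). Fkbp5 is at 12.8 and 13.1 FPKM in the 2 arms at CT12 and at 16.4 and 11.2 at CT24, while the arms of Nr3c1, Sgk1, Dusp1 and Mt2 stay apart at both times.

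In the same lists, to be read against 33.1% of all genes higher and 32.7% lower with DZnep, inflammatory genes known to be repressed by glucocorticoids were 10 higher and 2 lower of 14 tested with DZnep, with a median log2 difference of 0.82 against 0.006 over all genes. They include the prostaglandin synthase Ptgs2 (2.50, adjusted p = 2.90e-09), the growth factor Csf1 (1.39) and the chemokines Ccl2 (1.39) and Cxcl1 (1.19). Metal response genes other than the 2 members were 6 higher and 1 lower of 7, while Mt1 and Mt2 were lower. The higher ones include Txnrd1 (0.97, adjusted p = 9.07e-08), Hmox1 (0.72) and Gclc (0.86), which also answer to oxidative stress. The other glucocorticoid-induced genes were 9 higher and 13 lower of 27, with Tnfaip3 (1.54) and Sdpr (1.92) higher and Tgm2 (-1.20) and Sesn1 (-1.12) lower. Chaperones were 3 higher and 3 lower of 14, with Hsp90aa1 (0.57) higher and Hsp90ab1 (-0.95) lower. Coregulators were 7 higher and 3 lower of 15 (7 higher and 0 lower on deposited values), Med1 (0.45) among the higher. Steroid enzymes and related receptors were 3 higher and 3 lower of 7.

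**Figure D3:**
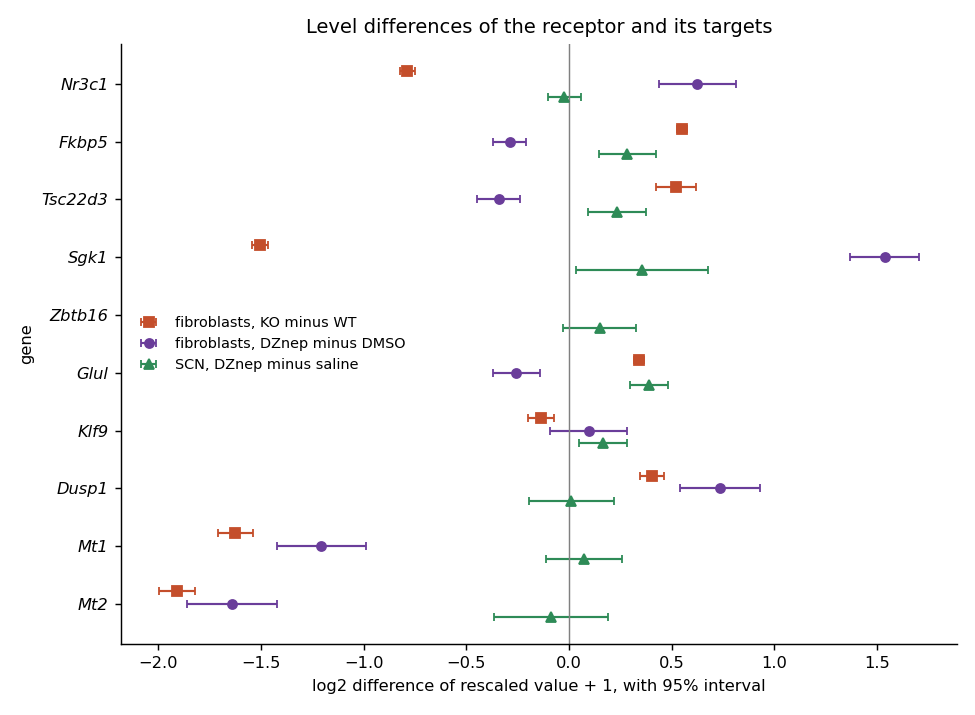
Log2 level differences (x axis) of rescaled value + 1 with 95% intervals for each member (y axis) in KO against WT fibroblasts (red squares), DZnep against DMSO fibroblasts (purple circles) and DZnep against saline SCN (green triangles), each averaged over times. Nr3c1 and Sgk1 lie on opposite sides of 0 in the 2 fibroblast experiments (-0.79 and 0.62; -1.50 and 1.54), Mt1 and Mt2 below 0 in both, and Zbtb16 was tested in the SCN only.

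Set side by side, the knockout and the inhibitor gave the same sign for 3 members called in both. These were Dusp1 (higher) and Mt1 and Mt2 (lower). The signs were opposite for Nr3c1 (-0.79 in KO, 0.62 with DZnep), Sgk1 (-1.50 and 1.54), Fkbp5 (0.55 and -0.29), Tsc22d3 (0.52 and -0.34) and Glul (0.34 and -0.26). The 2 experiments used different tables, units and controls, and the difference between them was not tested.

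In the SCN of saline mice, for which no dexamethasone is described, 7 of 10 members changed over the 4 circadian times, against 14.3% of all 13312 genes tested. Their ranges were wide, with a median over the 10 members of 0.74 on the log2 scale against 0.18 over all genes. With DZnep it was 7 of 10, against 8.21% of all genes, with a median range of 0.88 against 0.15. Tsc22d3 had the smallest p in both arms. It held 8.83, 10.3, 10.9 and 10.8 FPKM at CT3, 16.1, 11.2, 19.2 and 16.2 at CT9, 26.4, 21.5, 21.6 and 17.8 at CT15 and 12.6, 10.99 and 13.0 at CT21 with saline. CT15, early in the subjective night, was highest and CT3 lowest, with all CT3 libraries below all others and the CT15 libraries overlapping those of CT9. With DZnep it held 9.74, 11.6, 9.40 and 10.9 FPKM at CT3, 14.9, 15.8, 19.1 and 17.6 at CT9, 36.7, 26.8, 32.0 and 21.1 at CT15 and 19.4, 16.0, 14.7 and 20.7 at CT21. There the CT15 libraries were above all others. The ranges over times were 0.95 (adjusted p = 1.31e-04) with saline and 1.26 (adjusted p = 3.43e-06) with DZnep.

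Fkbp5 and Zbtb16 also had their highest means at CT15. Fkbp5 held 4.35, 4.31, 3.10 and 4.81 FPKM at CT3, 4.78, 5.43, 5.39 and 3.62 at CT9, 6.82, 8.28, 6.52 and 5.63 at CT15 and 5.43, 4.48 and 4.87 at CT21 with saline, with CT15 above all other libraries (0.54, adjusted p = 0.0305). With DZnep its CT15 libraries held 11.4, 8.71, 10.5 and 7.23 FPKM (0.57, adjusted p = 0.0101). Zbtb16, at or near 0 in the fibroblasts, rose from 2.24 ± 0.318 (SD, n = 4) FPKM at CT3 to 4.52 ± 0.920 (SD, n = 4) at CT15 with saline (0.70, adjusted p = 0.0230) and from 2.13 ± 0.204 (SD, n = 4) to 5.92 ± 1.96 (SD, n = 4) with DZnep (1.00, adjusted p = 0.00171). In both arms the CT15 libraries of Zbtb16 overlapped those of other times. Sgk1 passed with DZnep (1.37, adjusted p = 0.0244) and not with saline (0.90, adjusted p = 0.0673), where it did pass with a cosine of 24 h (adjusted p = 0.0265) and with a pseudocount of 0.1 (0.0440). It held 2.66, 3.22, 2.70 and 4.09 FPKM at CT3, 3.14, 6.18, 4.75 and 5.48 at CT9, 21.9, 13.1, 6.61 and 6.04 at CT15 and 8.21, 4.996, 3.86 and 4.31 at CT21 with DZnep and 2.54, 2.53, 2.55 and 2.42 FPKM at CT3, 4.74, 10.5, 3.44 and 5.25 at CT9, 5.81, 9.81, 4.26 and 4.17 at CT15 and 3.24, 2.82 and 2.53 at CT21 with saline. The CT15 values spread widely within each arm, and the highest saline value was that of the CT9 library with high immune markers. A cosine of 24 h placed the saline peaks at 12.3 h for Sgk1, 13.9 h for Tsc22d3, 14.4 h for Zbtb16 and 15.5 h for Fkbp5. With DZnep they were at 15.2, 15.2, 15.4 and 15.6 h. The saline calls of Fkbp5 and Zbtb16 were lost without saline CT15 replicate 1, 2 or 3 (adjusted p = 0.0588 to 0.123), and that of Fkbp5 without CT3 replicate 3 (0.0728) or with no filter (0.0547). With DZnep, Fkbp5 was lost without CT15 replicate 1 (0.0635) or 3 (0.0514), and Sgk1 without CT3 replicate 1 (0.0514) or CT15 replicate 1 (0.109) or 2 (0.0880), while saline Sgk1 passed without saline CT9 replicate 3 (0.0420) or DZnep CT15 replicate 1 (0.0320) or 4 (0.0482).

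**Figure D4:**
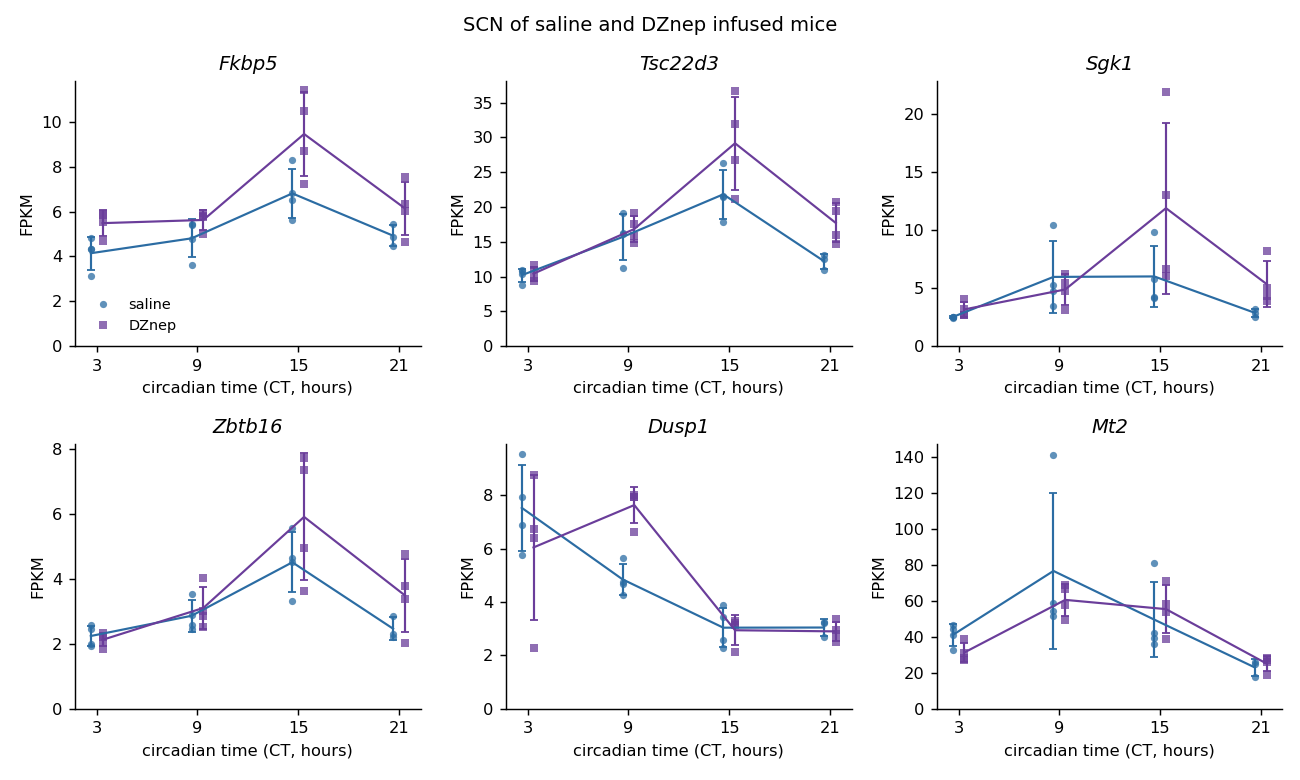
Deposited FPKM (y axis, from 0) of 6 members in the SCN against circadian time (x axis), with 1 point per library and lines joining the means ± SD of saline (blue circles) and DZnep mice (purple squares), n = 4 except saline CT21 (n = 3). Fkbp5, Tsc22d3 and Zbtb16 have their highest means at CT15 in both arms (Tsc22d3 21.8 FPKM with saline and 29.2 with DZnep), and the saline CT9 library at 141 FPKM stands apart for Mt2.

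The metallothioneins had their highest means earlier in the cycle, at CT9 in both arms, where their libraries overlapped those of other times. For Mt1 with saline this rested on the CT9 library with high immune markers (453 FPKM). Without that library the highest saline mean of Mt1 was at CT15, where its libraries held 236 to 340 FPKM. With saline, Mt2 at CT15 lay within its CT3 range except in replicate 2. Mt2 held 40.8, 46.5, 32.5 and 44.3 FPKM at CT3, 59.0, 141, 54.5 and 51.7 at CT9, 39.5, 80.9, 36.1 and 41.9 at CT15 and 24.8, 26.2 and 17.8 at CT21 with saline, and all CT21 libraries were below all others (1.55, adjusted p = 0.00331). With DZnep it held 31.3, 28.3, 27.0 and 38.6 FPKM at CT3, 49.1, 57.9, 68.7 and 66.4 at CT9, 71.0, 53.6, 58.3 and 38.6 at CT15 and 26.0, 27.1, 18.8 and 28.4 at CT21 (1.25, adjusted p = 0.00559). Mt1 changed as well, from 168 ± 4.81 (SD, n = 3) FPKM at CT21 to 306 ± 97.7 (SD, n = 4) at CT9 with saline (0.79, adjusted p = 0.0141) and from 193 ± 27.8 (SD, n = 4) at CT3 to 329 ± 70.2 (SD, n = 4) at CT9 with DZnep (0.76, adjusted p = 0.00662). The saline CT9 library with high immune markers held the highest saline value of Mt1, Mt2 and Sgk1. Without it the ranges were 1.18 (adjusted p = 0.00329) for Mt2, 0.62 (0.0128) for Mt1 and 0.87 (0.0831) for Sgk1, and the saline count of members was 6 of 10. Dusp1 had another course, with its highest saline mean at CT3. It held 6.88, 7.92, 5.74 and 9.55 FPKM at CT3, 5.66, 4.69, 4.27 and 4.76 at CT9, 3.88, 3.42, 2.28 and 2.57 at CT15 and 3.20, 2.68 and 3.25 at CT21 with saline (1.14, adjusted p = 6.73e-04), CT3 being above all other libraries. With DZnep it held 6.41, 6.74, 8.75 and 2.27 FPKM at CT3, 6.63, 7.92, 8.01 and 7.95 at CT9, 3.30, 3.15, 3.20 and 2.11 at CT15 and 3.36, 2.49, 2.79 and 2.95 at CT21 (1.21, adjusted p = 1.25e-04). At CT9 the DZnep libraries were all above the saline ones. Glul passed with saline (0.34, adjusted p = 0.0378), from 158 ± 24.6 (SD, n = 4) FPKM at CT9 to 203 ± 9.55 (SD, n = 4) at CT15, and not with DZnep (0.20, adjusted p = 0.376). The saline call of Glul was lost without any of 9 saline libraries (CT3 replicate 1, CT9 replicate 1 or 2, each of CT15, and CT21 replicate 2 or 3; adjusted p = 0.0502 to 0.0951), on deposited values (0.0635) and with no filter (0.0646), and Glul passed with DZnep without CT15 replicate 4 (0.0264). Klf9 did not pass in either arm, at 0.38 (adjusted p = 0.0945) with saline and 0.28 (adjusted p = 0.211) with DZnep, though it passed in both without DZnep CT15 replicate 4 (0.0445 and 0.0424) or DZnep CT21 replicate 1 (0.0478 and 0.0402). The receptor gene Nr3c1 stayed between 8.88 and 12.4 FPKM with saline and did not pass in either arm (adjusted p = 0.496 and 0.430).

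No member passed the limma test that the course over times differs between DZnep and saline (0 of 10, against 0.601% of all genes). At an unadjusted p under 0.05 it was 1, Dusp1 (unadjusted p = 0.0225, adjusted p = 0.326), and no cosine test passed either. The range of the difference was 0.94 on the log2 scale for Sgk1 and 0.91 for Dusp1, and was 0.54 or less for the other members. In level, 4 of 10 members differed between DZnep and saline averaged over times, against 35.2% of all genes, and all 4 were higher, as were 16.9% of all genes. The median over the 10 members was 0.16, against -0.005 over all genes. Glul was higher by 0.39 (SE 0.046, adjusted p = 3.38e-07). Its DZnep libraries held 232, 219, 202 and 222 FPKM at CT3 and 217, 225, 239 and 228 at CT9, all above the saline libraries of those times (159.6, 166, 170.3 and 190.2 and 179, 122, 166 and 165). At CT15 it held 320.2, 272, 292 and 216 against 214, 206, 191 and 202, and at CT21 249, 235, 219 and 286 against 179, 189 and 215. The arms did not overlap at CT15 or CT21 either. Fkbp5 was higher by 0.28 (SE 0.067, adjusted p = 0.00161), Tsc22d3 by 0.23 (SE 0.069, adjusted p = 0.00969) and Klf9 by 0.16 (SE 0.057, adjusted p = 0.0262), each with overlapping arms over all times. Within times, the arms of Fkbp5 overlapped at each. Those of Tsc22d3 and Klf9 overlapped at CT3, CT9 and CT15 but not at CT21 (n = 3 with saline). Sgk1 differed by 0.36 (SE 0.16, adjusted p = 0.0783) and passed without the library with high immune markers (0.43, adjusted p = 0.0181), saline CT15 replicate 2 (0.0383) or DZnep CT15 replicate 3 (0.0456) or 4 (0.0322). Nr3c1 differed by -0.022 (95% interval -0.10 to 0.06), Mt1 by 0.073 (95% interval -0.11 to 0.26), Mt2 by -0.088 (95% interval -0.37 to 0.19) and Dusp1 by 0.012 (95% interval -0.19 to 0.22). The 9 astrocyte markers, of interest for Glul, summed to 829 to 1219 FPKM with saline and 759 to 1362 with DZnep, 1 of 9 being higher and 1 lower with DZnep, and none was at 0 in every library. Microglia and immune markers summed to 47.1 to 93.0 FPKM with DZnep and had a median log2 difference of -0.08 over 9 tested.

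Of the other glucocorticoid-induced genes, 7 of 29 tested changed over times with saline and 8 with DZnep, against 14.3% and 8.21% of all genes. They include the clock genes Per1 (1.74 with saline and 1.91 with DZnep) and Per2 (2.29 and 2.06), which the clock also drives, the insulin receptor substrate Irs2 (0.48 and 0.48) and the RNA editor Adarb1 (0.32 and 0.43). Chaperones and cochaperones of the receptor changed in 9 of 14 cases with saline and 6 with DZnep, led with saline by Dnajb1 (1.59, adjusted p = 1.99e-08), Stip1 (0.68), Fkbp4 (0.56) and Hsp90aa1 (0.67). Of these 14, 5 passed the test of a different course with DZnep, against 0.601% of all genes, among them Dnajb1 (1.58, adjusted p = 3.05e-04), Stip1 (0.71, adjusted p = 0.00430) and Fkbp4 (0.48, adjusted p = 0.0257), as did Per1 (1.27, adjusted p = 0.00377) and Irs2 (0.53, adjusted p = 0.0107) of the induced genes and the zinc exporter Slc30a1 (0.50, adjusted p = 0.0359). Dnajb1 spanned 6.55 to 33.5 FPKM with saline and 9.47 to 23.3 with DZnep. In level, where 16.9% of all genes were higher and 18.3% lower, 5 of 9 metal response genes were higher with DZnep, among them Slc39a10 (0.23) and the brain metallothionein Mt3 (0.20), 5 chaperones were higher and 2 lower of 14, and 5 induced genes were higher and 1 lower of 29 (4 higher and 0 lower on deposited values).

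Genes whose rescaled log2 values, after subtracting the mean of each arm, followed those of a member most closely were found by Pearson's r across libraries, which share arms, times and rescaling. Over the 31 SCN libraries, Tsc22d3 was most like Cdh13 (r = 0.87), Klf15 (0.87) and Fam162a (0.84) of 7506 genes, Fkbp5 most like Mfsd2a (0.82), Sdc4 (0.77) and Lifr (0.77), and Mt1 most like Mt2. Between these 3 genes and the other members that passed the filter on mean level r ran from -0.10 (Mt1 and Glul) to 0.93 (Mt1 and Mt2) in the SCN, with 0.74 for Tsc22d3 and Fkbp5. It ran from -0.44 (Mt1 and Tsc22d3) to 0.76 (Mt1 and Mt2) over the 36 WT and KO libraries, with 0.05 for Tsc22d3 and Fkbp5, and from -0.93 (Mt1 and Klf9) to 0.95 (Mt1 and Mt2) over the 12 DMSO and DZnep libraries, with 0.55 for Tsc22d3 and Fkbp5. Over the WT and KO libraries Tsc22d3 was most like the clock output factor Tef (0.68), Nat2 (0.61) and Zfp326 (0.61). Fkbp5 was most like Traf1 (0.90), Spsb1 (0.85) and P4hb (0.82), and Mt1 like Cd63 (0.83), Cstb (0.78) and Mt2. In the DMSO and DZnep libraries Fkbp5 was most like Uaca (0.97), Tsc22d3 most like Tldc1 (0.89) and Mt1 most like Snrpe (0.98). These values are descriptions, and the 12 libraries hold only 2 times.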

How the data were processed

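RNA sequencing values came from 79 libraries. Per the submitters' processing notes, bcl2fastq 2.18.0.12, Trimmomatic 0.36, TopHat2 2.1.1 and Cufflinks 2.2.1 were used with mm10. The values the authors deposited for WT and KO fibroblasts were read as TPM, since library sums are 970075 to 980677, and the other deposited values as FPKM. No header names the units. Depth is unknown, and intervals of counting error are not printed. SCN decimals have the form of averages over 4 values, of unknown origin. SCN gene names given more than once (280 names) were averaged. The 2 arms of an experiment came in different tables.

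Within an experiment, both arms were rescaled together by median ratios, using genes with no value below 1. A gene entered the tests if 3 libraries reached 1, and values were analysed as log2(value + 1) with limma 3.58.1 (trend = TRUE, R 4.3.3) with a mean per arm and time. P-values were adjusted over all genes by Benjamini and Hochberg, and adjusted p under 0.05 was called. Time tests were F tests of any difference among times. The scripts were tested on simulated data. Alternatives were a pseudocount of 0.1, deposited values, quantile normalization, no filter, a mean of 5 or more, a replicate block, a cosine of 24 h, exclusion of CT20 or of high Malat1 libraries, each library left out in turn and, chosen after seeing the data, exclusion of the SCN library with high immune genes.

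The rule named all 10 members, up to 4 called genes per list and comparison with the smallest p and a mean of 5 or more, and the 3 genes most like Fkbp5, Tsc22d3 and Mt1. Members, lists (6 pathway lists with 104 genes, 7 marker lists with 73) and tests were chosen with earlier results of these data known. Xist, Ddx3y and Ahcy were named to check the cells. Gene locations are from GENCODE vM21 (GRCm38, the build of mm10), and sequences from RefSeq.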

Additional observations from a re-analysis of the deposited data

Results flagged for a closer look

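Of 70 SCN groups of 4 libraries and 1 member, 5 had a value far from the other 3, and chance flags about 1 in 20 groups. Replicate 2 of saline CT9 was high for Mt1 (453 FPKM) and Mt2 (141 FPKM), and it is the library with high immune markers. Replicate 2 of saline CT15 was high for Mt2 (80.9 FPKM). Dusp1 was low in DZnep CT9 replicate 1 (6.63 FPKM) and DZnep CT15 replicate 4 (2.11 FPKM).

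Effects that differed between arms by a test of the difference itself are those of the time courses. For the contrast of CT12 with later times, KO minus WT was 0.73 for Mt2, 0.41 for Tsc22d3, 0.40 for Klf9, 0.22 for Glul, 0.091 for Fkbp5 and -0.52 for Sgk1 on the log2 scale. The range over times of the difference between KO and WT was 1.06 for Mt2, 0.94 for Sgk1, 0.70 for Tsc22d3, 0.46 for Dusp1, 0.45 for Klf9, 0.44 for Glul, 0.33 for Fkbp5 and 0.29 for Nr3c1. For the change from CT12 to CT24, DZnep minus DMSO was -0.56 for Fkbp5.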

How the results depend on the processing

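Over 5025 values of single members under alternatives, 4911 kept their side of the threshold, 71 lost a call, 42 gained one and 1 reversed. A value counted as reversed if its sign changed and it was called before or after. Sign changes without any call were not counted, and F tests have no direction. The reversed value was the KO level difference of Klf9, which was 0.066 with values as deposited. With a cosine of 24 h, which sees only that shape, 5 members changed over time in WT and 5 in KO, and 4 differed between the arms. With quantile normalization 2 members changed with DZnep in fibroblasts, and without high Malat1 libraries 3 differed in time course between DZnep and DMSO; the cause was not tested. Leaving out each library gave these counts of members. KO level 9 to 9, WT time 8 to 9, KO time 7 to 9 and their difference 8 to 8. CT12 against later 5 to 7 in WT, 6 to 7 in KO and 5 to 7 for the difference. DZnep level in fibroblasts 8 to 8, DMSO time 6 to 7, DZnep time 2 to 6 and their difference 1 to 4. SCN level 4 to 5, saline time 4 to 9, DZnep time 5 to 9 and their difference 0 to 0. The lowest saline count came without CT15 replicate 1, 2 or 3. Whether replicate numbers shared by the labels pair libraries was not settled. In the KO, DZnep fibroblast and SCN experiments, the median correlation of same-numbered deviations was 0.0112, 0.0657 and -0.00667. For other numbers it was -0.000495, -0.00740 and 0.00255. Of the same-numbered pairs, 21 of 198, 8 of 18 and 20 of 105 exceeded 0.1, and that share was not computed for other numbers. With a replicate block, counts of members were the same as without it except 5 for the SCN level, where Sgk1 passed (adjusted p = 0.0482). In saline time Sgk1 passed (0.0401) and Glul did not (0.0501). Depth is unknown, arms sit in separate tables, and the SCN values may be means.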
